A study of Arabidopsis thaliana with 6 samples.

Results

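The ATL-type genes of *Arabidopsis thaliana* encode RING-H2 ubiquitin ligases, and 60 loci of this type were listed for study. A locus was kept where the platform annotation gave it a probe set naming that gene alone, and where a locus had several, the brightest over all arrays would have been taken. This left 36 of the 60 loci, each with a single such probe set, among 13355 genes measured in all. The listed loci were taken by family membership, but the choice was made with earlier results of these data known. The other 24 loci had no single-gene probe set in the annotation and were not analysed here. They include ATL2 (AT3G16720), ATL6 (AT3G05200), CNI1 (AT5G27420, also named ATL31), ATL9 (AT2G35000) and ATL1 (AT1G04360), so the counts describe the 36 measured genes and not the family.

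Ubiquitin ligases are the last of a chain of enzymes that attach ubiquitin to proteins: an activating enzyme hands ubiquitin to a conjugating enzyme, and the ligase brings that enzyme to the substrate. In a RING-H2 domain, cysteine and histidine residues hold zinc and form the surface that binds the conjugating enzyme. ATL proteins join such a domain to a hydrophobic, membrane-anchoring stretch, and their name comes from the toxicity of the founding member in yeast (Arabidopsis Toxicos en Levadura). In plants several family members, among them ATL2 and ATL9, are known for rapid induction by chitin or other elicitors, and CNI1 and ATL6 for acting on 14-3-3 proteins in the response to carbon and nitrogen supply.

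The samples were whole seedlings, 10 days old, grown in liquid medium that was renewed on day 8. In the treated group protease IV, a serine protease that *Pseudomonas aeruginosa* PA14 releases, had been purified and was added at 20 nM for 1 h, and the control group, called mock here, received none; the labels call it both nontreated and mock, and give no genotype or ecotype. Each group held 3 samples labelled as biological replicates, each on 1 Affymetrix array, and how wells were divided among them is not stated, so the p-values cover the spread among these 6 samples, which may be partly technical. Values are log2 expression, on which a difference of 1 is 2-fold. Differences are given as protease IV minus mock, fitted with limma over all 13355 genes. A gene was past the threshold at an adjusted p under 0.05.

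The arrays were alike in distribution, with medians between 6.07 and 6.13. The lower quartile of an array lay between 3.97 and 4.05, and means under it are called near background here, where differences are compressed. The labelled tissue was checked against markers. The leaf marker RCA (Rubisco activase) averaged 14.07 in mock and the root marker PYK10, a beta-glucosidase of endoplasmic reticulum bodies, averaged 12.63. The other measured root markers were much dimmer, with AT5G66390 at 5.78, EXPA7 at 5.39 and EXPA18 at 5.61 in mock, all under the array medians. Of 5 measured pollen markers 4 had both means near background, the other being TUA1 at 8.33, and none passed. Of the other measured markers 0 were higher after protease IV. Lower were 2 of 3 for leaf, 1 of 4 for root and 3 of 3 for the stomatal lineage. The largest fall of each list was -0.77 in the light-harvesting gene LHCB4.2, -0.34 in EXPA18 and -0.61 in FMA, a regulator of guard cell formation. Over all genes 22.8% were lower and 11.4% higher, so falls were the more common call. In a whole-seedling sample fewer cells of a type and less RNA per cell cannot be told apart. RNA quality was read as the 3-prime minus 5-prime value of control transcripts in 6 comparisons; 1 pair of actin probe sets gave 1.58 ± 0.0077 in mock and 1.81 ± 0.28 after protease IV, and 1 pair for GAPDH gave 0.727 ± 0.077 and 0.893 ± 0.11 (SD, n = 3 each; two-sided exact permutation p = 0.1 for both, the smallest the design allows). In both pairs the groups were only just apart, and protease IV replicate 3 was the highest array, at 2.12 for actin and 0.985 for GAPDH, whereas the other 4 comparisons gave exact permutation p = 0.3 to p = 1.0. The part of RNA quality in the results was not tested.

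The comparison asks which ATL-type transcripts differ after 1 h with the added protease. Because the labels call the control both nontreated and mock, effects of the addition itself cannot be told apart from those of the protease. Of the 36 measured genes 8 rose, 8 fell and 20 did not pass the threshold. The rises reached 24.4-fold, in AT4G15975, and the falls 4.68-fold, in AT5G47610. Over all genes 11.4% rose and 22.8% fell, against 22.2% and 22.2% of the ATL-type genes. At a change of at least 2-fold, 5 ATL-type genes rose and 3 fell, or 13.9% and 8.33% of those measured, where the shares over all genes were 4.51% and 1.17%. The genes that passed in either direction made up 44.4% of the ATL-type genes and 34.2% of all genes. The median difference was 0.011 over the ATL-type genes and -0.059 over all genes. With cyclic loess between the arrays 10 ATL-type genes rose and 7 fell, and over all genes the calls were 2060 higher and 1514 lower in place of 1525 and 3039.

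**Figure D1:**
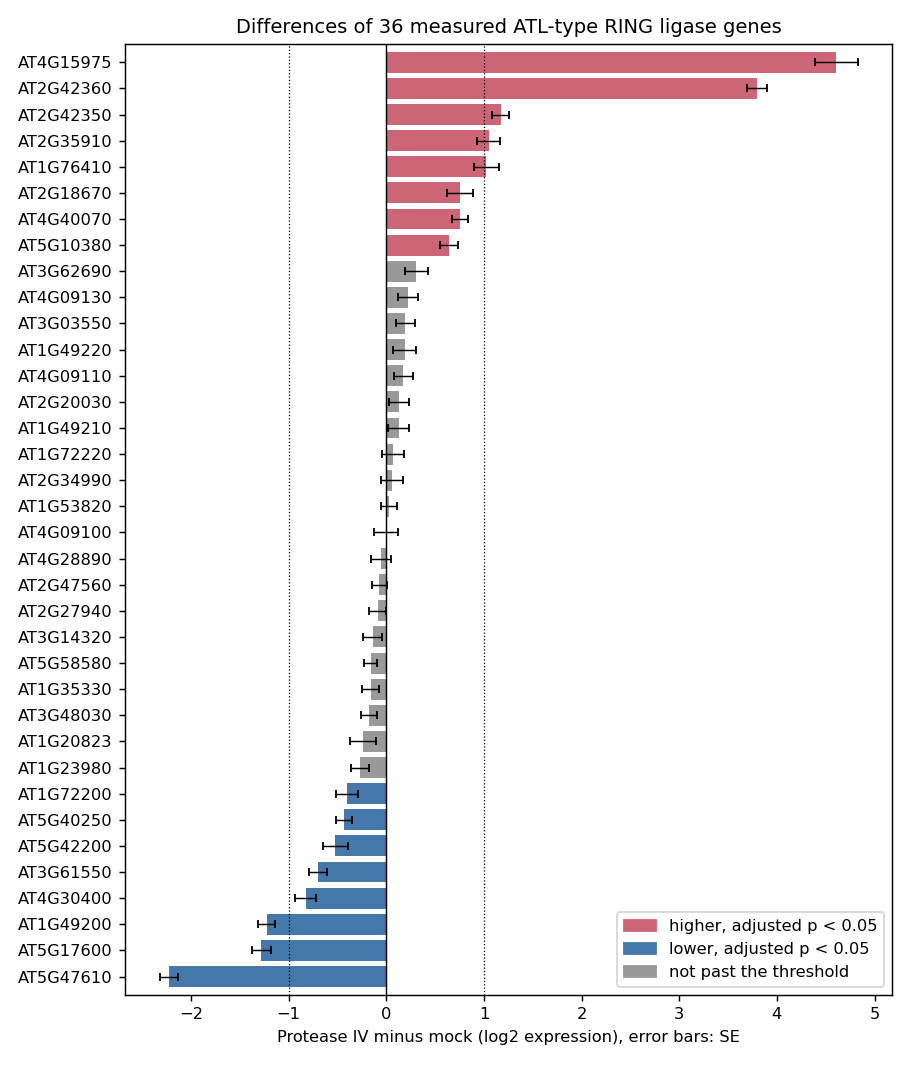
Difference between protease IV-treated and mock seedlings for each of the 36 measured ATL-type genes (log2 expression; error bars, SE from limma; dotted lines, 2-fold). The 2 largest rises, 4.61 and 3.80, stand well apart from the third at 1.17, and 20 genes lie between -0.27 and 0.31 without passing the threshold.

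AT4G15975 showed the largest difference of the 36 measured genes. Its mock arrays read 4.19, 4.17 and 3.88, and its protease IV arrays 9.03, 8.07 and 8.97. The mock mean, 4.08, lies just above the lower quartile of the arrays, so the gene was dim in mock and the size of its rise is that of the measured values. Protease IV replicate 2 was the lowest of the treated arrays. The difference was 4.61 (SE 0.22; limma, adjusted p = 5.14e-08), which ranked 36 of 13355 from the largest rise. Its treated group had the largest SD of any group of any ATL-type gene, 0.54, where the median SD within a group was 0.13 for these genes and 0.093 for all genes. The lowest treated array was still 3.88 above the highest mock array.

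AT2G42360 rose from 5.38, 5.45 and 5.26 in mock to 9.38, 8.995 and 9.12 after protease IV. The arrays of each group lay close together, and the groups were separated by a gap of 3.54. The difference was 3.80 (SE 0.10), or 13.9-fold, with the smallest adjusted p among the ATL-type genes (limma, 9.22e-10), and ranked 84 of all genes from the largest rise. AT2G42350, the gene directly beside it and also of the ATL type, rose less. Its mock arrays read 6.04, 6.02 and 5.99 and its treated arrays 7.31, 7.03 and 7.23. The mock arrays were nearly identical and all treated arrays lay at least 0.995 above them. The difference was 1.17 (SE 0.085; limma, adjusted p = 1.83e-06), or 2.25-fold.

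A further 2 genes rose just past 2-fold. AT2G35910 had mock values of 5.88, 6.06 and 5.96 and treated values of 7.28, 6.83 and 6.92, a difference of 1.05 (SE 0.11; limma, adjusted p = 4.38e-05). ATL8 (AT1G76410) had mock values of 6.38, 5.99 and 6.10 and treated values of 7.06, 7.43 and 7.06, a difference of 1.02 (SE 0.13; limma, adjusted p = 0.000113). Neither gene's groups overlapped, but both lie at the edge of the 2-fold limit. AT2G35910 was at 0.91 without protease IV replicate 1, and ATL8 at 0.94 without mock replicate 2, 0.996 without mock replicate 3 and 0.90 without protease IV replicate 2, each still past the threshold.

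Another 3 genes rose by less than 2-fold. RING1 (AT5G10380) encodes a ligase of the plasma membrane known for its part in cell death triggered by the fungal toxin fumonisin B1. Its mock arrays read 6.79, 6.65 and 6.51 and its treated arrays 7.41, 7.27 and 7.20. All treated arrays lay above all mock arrays, with a gap of 0.41 and a difference of 0.64 (SE 0.093; limma, adjusted p = 0.000351), or 1.56-fold. AT4G40070 went from 4.80 ± 0.10 to 5.55 ± 0.064 (SD, n = 3 each), a difference of 0.75 (limma, adjusted p = 4.05e-05).

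**Figure D2:**
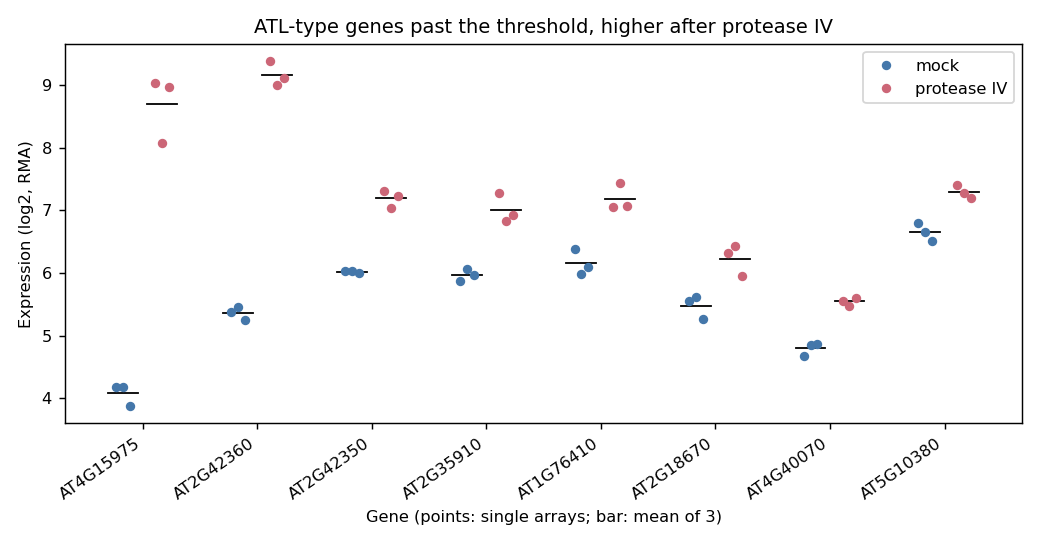
Log2 expression on each array for the 8 ATL-type genes that rose, mock beside protease IV (points, single arrays; bars, means of 3). The groups do not overlap in any of the 8, and AT4G15975 and AT2G42360 show the widest separation.

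AT2G18670 was read by a probe set of its own and by a second one that the annotation assigns to it and to the adjacent gene AT2G18680 together. On its own probe set it went from 5.55, 5.62 and 5.26 in mock to 6.31, 6.43 and 5.95, a difference of 0.75 (SE 0.13; limma, adjusted p = 0.00124). All treated arrays lay above all mock arrays, by 0.33 or more. The mock mean of the shared probe set, 3.96, is near background, so its difference is that of the measured values and not exact. It read 4.29, 3.91 and 3.69 in mock and 8.65, 8.25 and 8.52 after protease IV, a difference of 4.51 (SE 0.15), or 22.8-fold, in a limma fit adjusted over all 22746 probe sets (adjusted p = 5.70e-09). Both probe sets were higher on every treated array than on any mock array, and the shared one cannot be assigned to either gene. AT2G18690, which has 1 further gene between it and AT2G18680 and is not of the ATL type, rose as well, from 8.35 ± 0.21 to 12.16 ± 0.15 (SD, n = 3 each), a difference of 3.82.

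**Figure D3:**
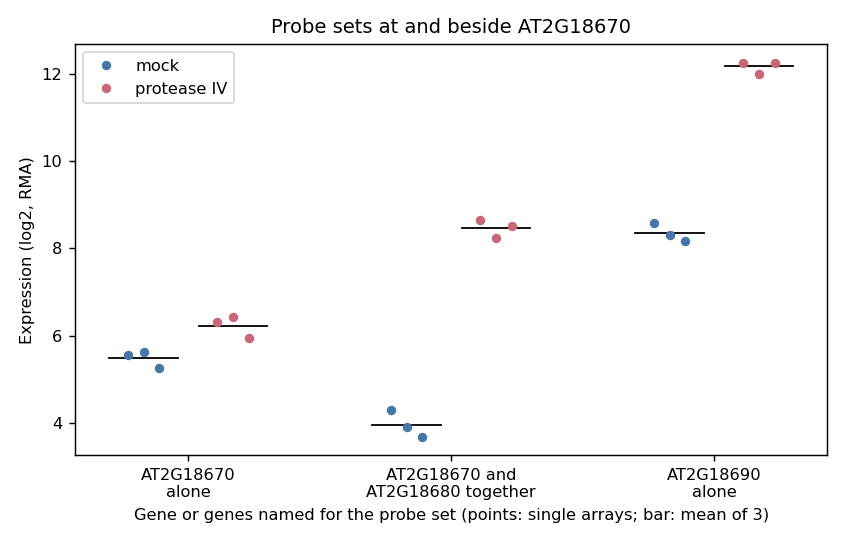
Log2 expression on each array for the probe set of AT2G18670 alone, the probe set named for AT2G18670 and AT2G18680 together, and the probe set of AT2G18690 (points, single arrays; bars, means of 3). All 3 were higher after protease IV, by 0.75, 4.51 and 3.82.

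Among the falling genes AT5G47610 changed most. Its mock arrays read 9.24, 9.04 and 9.02 and its treated arrays 6.73, 6.96 and 6.93. The groups were 2.06 apart, and the arrays within each group were close together. The gene fell by 2.23 (SE 0.093; limma, adjusted p = 1.95e-08) and ranked 7 of 13355 from the largest fall. AT5G17600 read 5.40, 5.73 and 5.59 in mock and 4.35, 4.16 and 4.37 after protease IV, and fell by 1.28 (SE 0.10; limma, adjusted p = 3.28e-06). AT1G49200 read 8.35, 8.26 and 8.22 in mock and 7.04, 6.92 and 7.19 after protease IV, and fell by 1.22 (SE 0.087; limma, adjusted p = 1.61e-06). In both genes every treated array was more than 1 below every mock array, at gaps of 1.03 and 1.02.

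The remaining 5 falling genes changed by less than 2-fold, with differences from -0.83 to -0.41 and mock means from 5.92 to 7.21. AT4G30400 fell by 0.83, from 6.06 ± 0.14 to 5.23 ± 0.18, and AT3G61550 fell by 0.70, from 6.99 ± 0.17 to 6.29 ± 0.047 (SD, n = 3 each). AT5G42200 fell by 0.52 and AT5G40250 fell by 0.43. AT1G72200 fell by 0.41 (limma, adjusted p = 0.0179), with a gap of 0.050 between the groups. Its call was lost without mock replicate 2 (-0.39), mock replicate 3 (-0.37), protease IV replicate 1 (-0.30) or protease IV replicate 3 (-0.38), and with cyclic loess (-0.27).

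**Figure D4:**
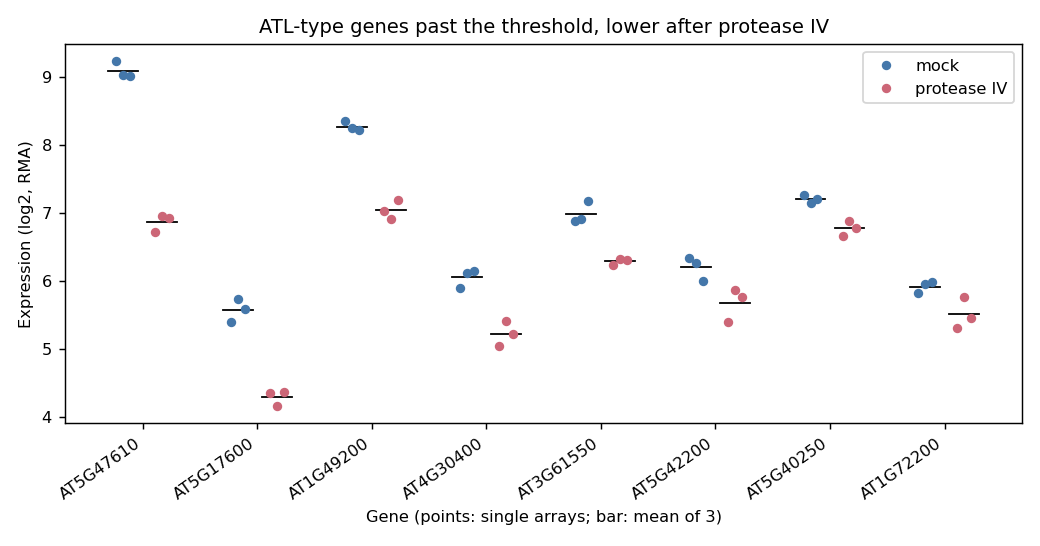
Log2 expression on each array for the 8 ATL-type genes that fell, mock beside protease IV (points, single arrays; bars, means of 3). The groups do not overlap in any of the 8, and the gap runs from 0.050 in AT1G72200 to 2.06 in AT5G47610.

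In 21 of the 36 genes, or 58.3%, the mock and treated arrays did not overlap, where over all genes the share was 45.6%. These 21 hold all 16 that passed and 5 that did not. The 20 genes that did not pass had differences from -0.27 to 0.31, with 10 above 0 and 10 below, and 3 of them had an unadjusted p under 0.05. ATL5 (AT3G62690), whose product is known for its part in seed longevity, had the highest of these differences at 0.31 (limma, adjusted p = 0.0740). Its treated arrays ranged from 5.46 to 5.98 and its mock arrays from 5.34 to 5.42. AT1G23980 lay just outside the threshold at -0.27 (limma, adjusted p = 0.0502), and ATL63 (AT5G58580) differed by -0.16 (adjusted p = 0.103). AT1G20823 at -0.24, AT3G48030 at -0.17 and AT1G35330 at -0.16 were also lower without passing. AT2G47560 at -0.07, AT4G28890 at -0.05, AT2G34990 at 0.06, AT1G72220 at 0.07 and AT3G03550 at 0.20 did not pass either.

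Of the 20 genes that did not pass, 7 had both means near background. They were AT4G09130, AT1G49220, AT2G20030, AT1G53820, AT4G09100, AT2G27940 and AT3G14320, with differences between -0.14 and 0.22. Over all genes 27.2% had both means near background, against 19.4% of the ATL-type genes. In all, 12 ATL-type genes had their higher mean under 5, and 0 of these passed in limma, with 0 at an unadjusted p under 0.05. Because differences are compressed there, these 12 genes cannot be read as unresponsive. The class goes by the higher mean, so a dim gene that rises past 5 leaves it, and the 0 is partly set by this rule. The share of all genes of this class that passed was not worked out, so the 0 cannot be set against it. AT4G15975 and AT4G40070, with mock means of 4.08 and 4.80, rose to 8.69 and 5.55 and passed.

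Several of the listed loci are neighbours. With at most 2 genes between adjacent members, 18 of the 60 form 7 runs, and 4 runs have at least 2 measured members. In the pair AT2G42350 and AT2G42360, with 0 genes between them, both rose. In the run from AT1G49200 to AT1G49230 the members differed: AT1G49200 fell by 1.22, whereas AT1G49210 was at 0.13 and AT1G49220 at 0.19 (limma, adjusted p = 0.429 and adjusted p = 0.263), both with means under 5. AT1G72200 fell by 0.41, while AT1G72220, which has 1 gene between it and AT1G72200, was at 0.07 (adjusted p = 0.715). The 3 measured members of the run from AT4G09100 to AT4G09130, at -0.004, 0.17 and 0.22, did not pass, and their means lay between 3.34 and 4.08. A probe set shared by the neighbours AT4G10150 and AT4G10160, which were not analysed singly, read 3.08 in mock and 3.11 after protease IV, both near background. None of the 36 probe sets carries the array's mark for probes shared between transcripts.

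**Figure D5:**
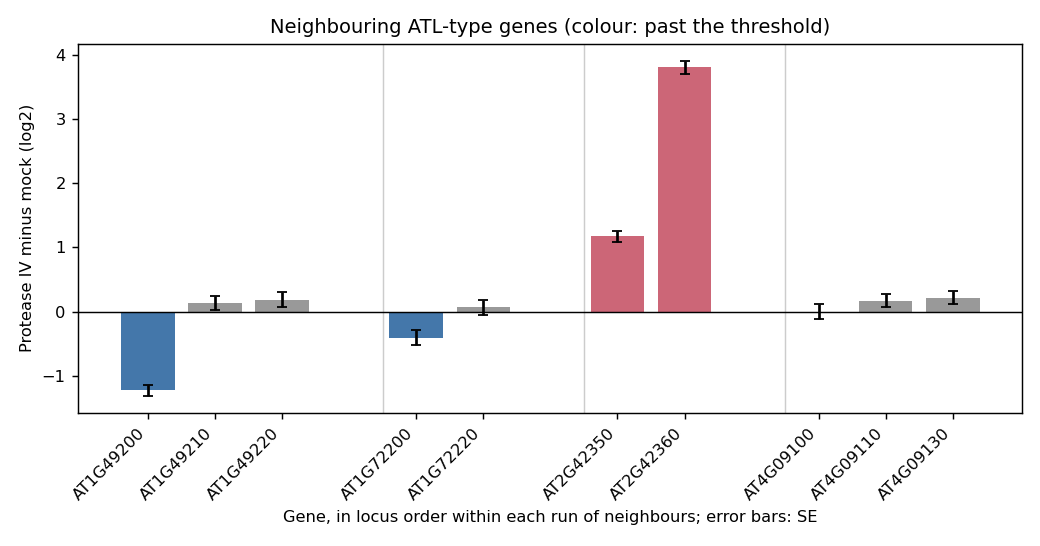
Difference between protease IV-treated and mock seedlings (log2 expression; error bars, SE from limma) for measured ATL-type genes in the 4 runs of neighbouring loci with at least 2 measured members, in locus order. Both members of the pair AT2G42350 and AT2G42360 are above 0, at 1.17 and 3.80, whereas AT1G49200 at -1.22 and AT1G72200 at -0.41 are below 0 beside neighbours that did not pass.

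ATL-type genes are short. The median span in the RefSeq annotation was 1249.5 bases for the 36 genes and 2109 bases for the 12262 tested nuclear protein-coding genes. By response, the median span was 1254 bases for the 5 that rose at least 2-fold and 1159.5 bases for the 20 that did not pass.

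The enzymes that pass ubiquitin to ligases were set beside the ATL-type genes. Of 43 listed activating, conjugating and related enzymes 14 were measured. Of these 1 rose, 2 were lower and 11 missed the threshold, with a median difference of -0.039, where over all genes 11.4% rose and 22.8% fell. UBC16, a ubiquitin-conjugating enzyme, rose from 7.88 ± 0.040 to 8.37 ± 0.071 (SD, n = 3 each), a difference of 0.49. UBC18, another conjugating enzyme, fell by 0.43 and UBC37 fell by 0.23. None of the 14 changed by 2-fold, and over all genes the shares that did were 4.51% higher and 1.17% lower. PEX4, the conjugating enzyme of peroxisomes, was at -0.01, and the conjugating enzyme UBC28 at -0.004. Of 35 listed RING ligases of other types only 3 were measured: BRH1, a RING-H2 gene known to respond to brassinosteroid, fell by 0.50, XERICO, a RING-H2 gene linked to abscisic acid levels, fell by 0.45, and AT5G53360 was at -0.16 (limma, adjusted p = 0.153). The falls of BRH1 and XERICO are in the range of the smaller ATL-type falls, and 22.8% of all genes fell. No ubiquitin gene (0 of 9 listed) and no 14-3-3 gene or SYP121 (0 of 13 listed) had a single-gene probe set, so the known targets of CNI1 and ATL6 were not analysed here.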

How the data were processed

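Whole seedlings were measured on 6 Affymetrix Arabidopsis arrays, 3 per group. The deposited values are log2 expression values made by the authors with RMA in affy 1.36.1, per the submitters' processing notes, with settings not given in the sources used here. RMA corrects background, quantile-normalizes arrays and summarises probe sets, so changes in total mRNA cannot be read. Of 22810 probe sets, 64 were controls, 13513 named 1 gene, 503 several and 8730 none; 13484 were matched to RefSeq (TAIR10.1) for names, gene order and span. The brightest single-gene probe set stood for each of 13355 genes. limma 3.58.1 in R 4.3.3 (lmFit, eBayes, no trend, no covariates) gave two-sided p-values, Benjamini-Hochberg adjusted over all genes, and was tested on simulated data. SDs are over 3 arrays, and precision is limited by the number of arrays.

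The loci, lists and tests were chosen with earlier results of these data known. Values per array are given for genes that changed at least 2-fold without overlap and for RING1; for AT2G18670 and AT2G18690 this was chosen after their values were seen, as were other members named with a mean. Of each list of ubiquitin-related genes up to 3 members past the threshold are named by size. Of the leaf, root and stomatal lineage markers the largest fall of each list is named. The values of PEX4, UBC28, AT5G53360, RCA, PYK10, AT5G66390, EXPA7, EXPA18 and TUA1 were added after they were seen. Alternatives covered the replicate block, each array left out, scaling, filters, variance models and probe set choice. Protein and promoter sequences were not used here.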

Additional observations from a re-analysis of the deposited data

Results flagged for a closer look

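A signal appeared in a probe set that the comparison of ATL-type genes did not use, because it names AT2G18670 together with AT2G18680. It was 4.51 higher after protease IV than in mock (log2; means 3.96 ± 0.30 and 8.47 ± 0.21, SD, n = 3 each), whereas the probe set of AT2G18670 alone was 0.75 higher. The mock mean of the shared probe set lies under the lower quartile of the arrays, where differences are compressed, so the 4.51 is not exact. Which of the 2 genes, or both, gave the shared signal was not tested.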

How the results depend on the processing

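Across 15 alternatives, 15 of the 16 ATL-type genes past the threshold in limma kept their direction and their call, the exception being AT1G72200, and 0 called differences reversed. With cyclic loess AT5G42200 kept its call only narrowly, at -0.38 (limma, adjusted p = 0.0495), and AT5G40250 shrank from -0.43 to -0.25 (adjusted p = 0.0288). The count of rising genes was 8 to 10 and of falling genes 7 to 9, with each array left out in turn as well as under the other settings. Among settings that tested all 13355 genes, the calls over all genes ran from 1342 to 2060 higher and from 1514 to 3298 lower. At least 2-fold, 4 or 5 rose and 3 fell. The median difference over the ATL-type genes ranged from -0.077 to 0.033 with single arrays left out. Without mock replicate 1 it was -0.032 and without protease IV replicate 1 -0.077, so its sign is not settled.

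Among genes that did not pass in the main analysis, AT3G62690 passed with cyclic loess (0.43), without dim genes and without protease IV replicate 3 (0.42). AT3G03550 passed with cyclic loess (0.35), AT1G49220 without protease IV replicate 3 (0.32) and AT3G48030 without protease IV replicate 2 (-0.24). AT1G23980 passed under 6 alternatives, among them the replicate block (adjusted p = 0.0423). With the replicate number as a block 8 ATL-type genes rose, 9 fell, 5 rose and 3 fell at least 2-fold, and the median was 0.011. Over all 13355 genes 1441 rose and 2738 fell under that setting. Same-numbered deviations from the group means correlated at 0.038, -0.101 and -0.176 across genes, and the other pairs at -0.06 to 0.159. With 3 arrays per group these values cannot show whether a number marks a shared batch, which the labels do not state. Genes near background limit what can be seen: without dim genes 24 of the 36 were tested, and 9 rose and 9 fell. Under that filter 7805 genes were tested in all, of which 1410 rose and 3190 fell. Falls were thus 69.3% of the calls over all genes and 50.0% of those among the ATL-type genes. That filter goes by the higher mean, so AT4G15975 and AT4G40070, under 5 in mock, stayed in through their treated means.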

Other observations

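Genes beside the strongly changed ATL-type genes gave mixed values. AT2G42370, directly after AT2G42360, was at -0.10 (limma, adjusted p = 0.322), and AT2G42340, directly before AT2G42350, at -0.06 (adjusted p = 0.584), both with means under the lower quartile of the arrays. AT2G42330, with 1 gene between it and AT2G42350, rose by 0.29 (limma, adjusted p = 0.0242). AT4G15980, directly after AT4G15975, was at -0.02 with both means near background. PUB23, which has 1 gene between it and AT2G35910 and encodes a U-box ubiquitin ligase that restrains immune signalling, rose by 5.05 (SE 0.11), and AT2G35920 between them was at 0.02 (limma, adjusted p = 0.932). AT2G35900, on the other side of AT2G35910, fell by 0.25. AT1G76400, with 1 gene between it and the rising ATL8, fell by 0.46, and AT1G76405 between them was at -0.07 (limma, adjusted p = 0.580). AT1G49180, with 1 gene between it and the falling AT1G49200, fell by 0.51, and AT1G49190 between them was at -0.03 near background. On the 2 sides of the falling AT5G17600, AT5G17580, with 1 gene between, at -0.23 and AT5G17610, directly after, at -0.21 did not pass. Over all genes 22.8% fell. AT5G47620, directly after the falling AT5G47610, fell by 0.40, and AT5G47600 on its other side was at -0.04 near background. These neighbours were examined after the differences of the ATL-type genes were known.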
